A study of Rattus norvegicus with 12 samples.

Results

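Regulators of Schwann cell identity, myelination and repair were followed as 10 genes in dorsal root ganglia (DRG) of rats with a spinal nerve ligation (SNL): Egr2, Sox10, Pou3f1, Sox2, Olig1, Nab1, Nab2, Shh, Erbb2 and Erbb3. The genes were listed by name, with earlier results of these data known, and their rows were found by gene symbol in the 2 deposited tables. Where a symbol had more than 1 row, the row with the highest mean level was used. In the table of Control and SNL, 9 of the 10 had a row of their own among 16481 symbols, and in the table of the shRNA groups 10 of 10 among 16464. Erbb3 was joined with its neighbour Pa2g4 in a single row of the SNL table.

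RNA of the L5 DRG was sequenced in 4 groups of 3 libraries at day 14 after SNL, a neuropathic pain model. Control was the contralateral L5 DRG and SNL the ligated side of Sprague Dawley rats, with no vector. The groups SNL+control shRNA and SNL+Neat1 shRNA received ligation and, 7 days earlier, an adeno-associated virus of serotype 6 injected into the L5 DRG, carrying a control shRNA or an shRNA to Neat1, a nuclear long non-coding RNA. Rats were 5 to 6 weeks old. The labels give males, whereas the methods name both sexes for all experiments. The methods describe the vector as reaching DRG neurons, so the genes followed here, which are known mainly from glia, were not its stated target cells. The deposited tables give 1 FPKM (fragments per kilobase of transcript, scaled to the fragments sequenced) for each group, pooled over its 3 libraries. No spread between rats could be taken from them, no difference below has an error or a test, and a gene is counted as higher or lower where the ratio of the pooled FPKM passed 1.5-fold.

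Schwann cells are the glia that wrap peripheral axons. SOX10 gives and keeps their identity, POU3F1 (Oct-6, SCIP) carries them from the promyelinating to the myelinating stage, and EGR2 (Krox-20) switches on the myelin and lipid genes together with its NAB partners. After nerve injury these cells can leave the myelinating state and take on a repair state marked by SOX2, JUN and sonic hedgehog, while neuregulin from axons acts on them through the receptor pair ERBB2 and ERBB3.

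The tissue and the groups were checked first. Neuronal Tubb3 (2403 FPKM in Control) and Schwann cell Pmp22 (1895 FPKM) were abundant. The row of Neat1, found 20 kb or less from its neighbour Frmd8, stood at 141 FPKM in Control, 294 in SNL, 355 in SNL+control shRNA and 374 in the group labelled Neat1 shRNA. In this row the targeted RNA thus did not stand below its control level where the label gives Neat1 shRNA, and every direction given below for that group carries this limit. The row is of whole-ganglion RNA, so the level of Neat1 within the vector's stated target cells cannot be read from it. Macrophage markers were all higher in SNL (8 of 8 measured, summed level 40.5 in Control and 215 FPKM in SNL), as were T cell markers (6 of 6, 8.82 and 37.5 FPKM) and fibroblast markers (5 of 5, 695 and 1686 FPKM), and no marker of these 3 lists was at 0. Most of the T cell sums was Cd4, at 6.48 and 27.5 FPKM, while the other measured T cell markers were each below 1 FPKM in Control. These sums thus mainly follow Cd4, and which cells its RNA came from was not tested. Of the satellite glia markers, 1 of 8 was higher and 4 lower (summed 4492 and 2948 FPKM), and of the neuron markers 2 of 8 were higher and 4 lower (summed 8354 and 9634 FPKM). In the group labelled Neat1 shRNA, T cell markers were lower in 7 of 8 (summed 122 and 55.5 FPKM) and B cell markers in 2 of 2 measured (summed 4.65 and 0.712 FPKM). Cd4, the T cell marker that did not pass 1.5-fold, made up 55.2 FPKM of the sum with control shRNA and 37.8 in that group. There none of the macrophage (summed 367 and 297 FPKM), fibroblast (2141 and 2276), neuron (7925 and 8478) or satellite glia (4195 and 4813) markers passed 1.5-fold. The Schwann cell markers, which include Sox10 itself, were higher in 2 of 6 and lower in 1 in SNL (summed 7808 FPKM in Control and 6184 in SNL). Between the shRNA groups 0 of 7 passed 1.5-fold, with summed levels of 5299 and 7342 FPKM and a median log2 ratio of FPKM + 1 of 0.33. Over all symbols with FPKM of at least 1 in 1 group, 19.2% were higher and 16.4% lower in SNL. In the group labelled Neat1 shRNA, 1.5% were higher and 3.9% lower. The part that these differences in markers play in the levels below was not tested, and in such bulk RNA fewer or more cells of a type and less or more RNA per cell cannot be told apart.

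After SNL most of the regulators stood above Control. Of the 8 members with a row of their own and FPKM of at least 1 in 1 group, 5 were higher past 1.5-fold (Pou3f1, Egr2, Erbb2, Nab2 and Sox10), 0 were lower and 3 lay within 1.5-fold (Shh, Sox2 and Nab1). Among all 11090 symbols with that level, 19.2% were higher and 16.4% lower (35.7% either way), so the share of members that were higher, 62.5%, was above the background of the table. The median log2 ratio of the 8 was 0.90, against -0.0058 over 10225 symbols with FPKM of at least 1 in both groups. With the shRNA to Neat1 in the label, 1 of 9 members was higher than with control shRNA (11.1%, Pou3f1) and 0 were lower, where 1.5% of 11113 symbols were higher and 3.9% lower (5.4% either way). That share rests on a single gene. The median log2 ratio of the 9 was 0.20, against -0.0033 over 10799 symbols, and 8 of 9 ratios were above 1.

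**Figure D1:**
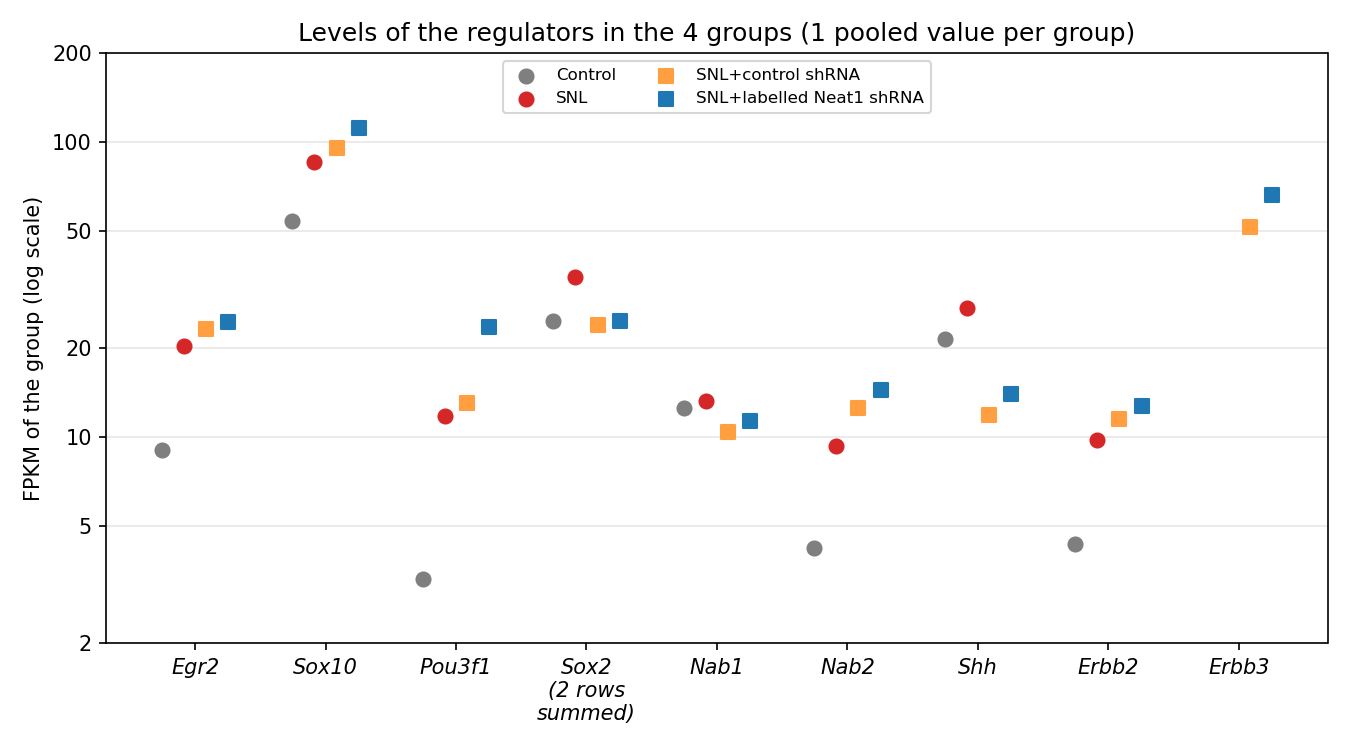
FPKM of each regulator (log axis) in Control, SNL, SNL+control shRNA and the group labelled Neat1 shRNA, 1 pooled value per group with no error bar; circles and squares come from separately assembled tables. Sox10 was the most abundant of the genes drawn in all 4 groups, and Pou3f1 ran from 3.32 FPKM in Control to 23.5 FPKM in the group labelled Neat1 shRNA.

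Sox10, the identity factor of neural crest glia, was the most abundant member with a row of its own. Its level was 53.9 FPKM in Control, 85.5 in SNL, 95.5 in SNL+control shRNA and 112 in the group labelled Neat1 shRNA. It was 1.59-fold higher in SNL than in Control (log2 ratio 0.67), just past the threshold, and 17.2% of symbols had a higher ratio. It differed by 1.17-fold between the shRNA groups. Its row covers chr7:120387070-120397340 of rn5, the rat build of the files, and no other row shared that locus. Satellite glia also express Sox10, so the row stands for more than Schwann cells. Cdh19, another gene of early glia, stood at 23.0 FPKM in Control and 43.9 in SNL, whereas S100b, which mature Schwann cells make, stood at 883 and 573 FPKM.

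Egr2, the zinc finger factor that drives myelin gene transcription, was measured at 9.005 FPKM in Control and 20.3 in SNL, and at 23.2 and 24.5 FPKM in the shRNA groups. The SNL level was 2.25-fold that of Control (log2 ratio 1.17), with 8.66% of symbols at a higher ratio. The shRNA groups lay close together, with a ratio of 1.06. The row lies at chr20:24551897-24558786. The other EGR factors, which answer to activity and growth factor signals, were higher in SNL too, with Egr1 at 7.03 FPKM in Control and 24.4 in SNL and Egr3 at 4.09 and 6.68. Egr4 stayed under 1 FPKM in every group. In the shRNA table Egr1 stood at 63.8 and 60.1 FPKM and Egr3 at 7.53 and 8.39.

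The start region of Egr2 is shown because it carries the octamer, the motif named for the POU family to which Pou3f1 belongs. It is the RefSeq window of 300 bases, 250 before and 50 after the start, from the build GRCr8 (chr20:21054392-21054691, minus strand), which is not the build of the files, so its coordinates are not those of the rows. Capitals mark the octamer ATGCAAAT at position -139 from the start and a CArG box, the motif of serum response factor, at -83:
Egr2: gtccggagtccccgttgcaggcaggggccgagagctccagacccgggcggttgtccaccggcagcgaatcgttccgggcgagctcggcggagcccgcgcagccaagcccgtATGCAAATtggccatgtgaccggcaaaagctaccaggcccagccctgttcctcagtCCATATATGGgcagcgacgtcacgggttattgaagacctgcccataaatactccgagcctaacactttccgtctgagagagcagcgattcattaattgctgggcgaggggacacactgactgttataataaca
With both strands searched, each of these motifs was found in 1.64% of 27457 promoters of the same length. The SOX motifs ACAAAG (18.3% of promoters) and ACAATG (13.0%) and the EGR motif GCGTGGGCG (0.590%) were not in this window. A match is a description of the sequence and does not show that a factor binds there.

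Pou3f1, the POU factor of promyelinating Schwann cells, had the highest ratio of the members in SNL and, as the groups are labelled, in the shRNA comparison. It stood at 3.32 FPKM in Control, 11.8 in SNL, 13.0 in SNL+control shRNA and 23.5 in the group labelled Neat1 shRNA. In SNL it was 3.55-fold its Control level (log2 ratio 1.83, 4.23% of symbols higher), and the level in the group labelled Neat1 shRNA was 1.81-fold that with control shRNA (log2 ratio 0.85, 0.603% of symbols higher). With the 2 shRNA groups exchanged the ratio would be 0.553, the lowest of the members. SNL and SNL+control shRNA lay close to each other, at 11.8 and 13.0 FPKM, although they come from separate tables. Only the latter received a vector, and the other ligated group, labelled Neat1 shRNA, stood at 23.5 FPKM. Pou3f1 (chr5:146414651-146417633) was 1 of 10 symbols, out of 10020 with FPKM of at least 1 in all 4 groups (0.0998%), that were past 1.5-fold higher in both comparisons as labelled. A ratio higher in SNL and lower in the group labelled Neat1 shRNA was found for 92 symbols (0.918%). No symbol lay within 0.1 of it on the plane of the 2 log2 ratios, and the nearest were Btbd16 (distance 0.32) and Bcl2l11 (0.35). The related POU gene Pou3f2 was at 2.98 FPKM in Control and 4.099 in SNL, and at 5.19 and 5.60 in the shRNA groups, and Pou3f3 was at or near 0.

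**Figure D2:**
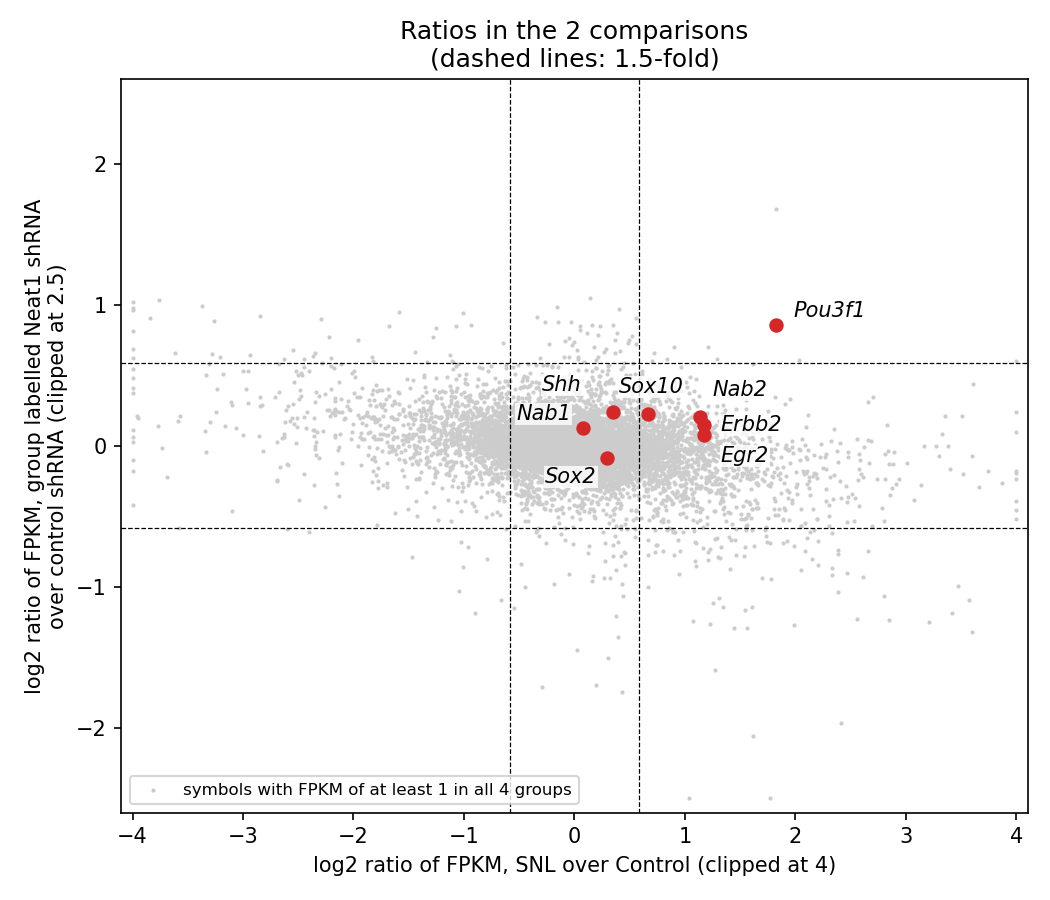
Log2 ratio of FPKM for SNL over Control (x axis) and for the group labelled Neat1 shRNA over control shRNA (y axis), for 10020 symbols with FPKM of at least 1 in all 4 groups (grey, clipped at the axis limits) and the 8 regulators among them (red); dashed lines mark 1.5-fold. Pou3f1, at 1.83 and 0.85, is the only regulator past the threshold on both axes, and Egr2, Erbb2 and Nab2 lie near one another at 1.17, 1.17 and 1.14 on the x axis.

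Sox2, a factor of immature and repair Schwann cells that holds back myelination, was carried by 2 rows with the same locus (chr2:140707914-140862790), and the rows could not be matched to transcripts across the tables. The row used stood at 15.9 FPKM in Control and 19.6 in SNL, and the other at 8.87 and 15.2. The ratio was 1.23 in the first (log2 0.30) and 1.72 in the second (0.78), so the call for Sox2 in SNL depends on the row. In the shRNA table the row used stood at 17.3 FPKM with control shRNA and 16.3 in the group labelled Neat1 shRNA (0.942-fold), and the other at 6.65 and 8.56 (1.29-fold). With both rows summed the levels were 24.8, 34.8, 23.9 and 24.8 FPKM in the order of the groups. The rows span 154876 bp in the SNL table and 133823 bp in the shRNA table, and 3 unnamed rows share the locus in the first, so reads of Sox2 and of other transcripts there may be divided differently in each table.

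The other SOX factors were higher in SNL in 4 of 5 measured, with 0 lower (median log2 ratio of FPKM + 1 of 0.60, against 0.0039 over all 11090 symbols). Of those symbols, 19.2% were higher and 16.4% lower. Sox11, which injured sensory neurons are known to express, stood at 2.44 FPKM in Control and 23.6 in SNL, and Sox8, the close relative of Sox10, at 1.18 and 3.20. With the shRNA vectors 0 of 6 passed 1.5-fold, with Sox11 at 21.3 FPKM in both. Olig1, a factor of the oligodendrocyte lineage, was listed at 0.00808 FPKM in Control, 0 in SNL, 0 with control shRNA and 0.0203 in the group labelled Neat1 shRNA. These levels are far below 1 FPKM, no ratio is given, and Olig2 was listed at 0 in all 4 groups. Mog, a myelin protein of the central nervous system, did not exceed 0.143 FPKM in any group.

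Nab1 and Nab2, co-regulators that bind EGR factors and that Egr2 needs for myelination, differed from each other after ligation. Nab2 was at 4.22 FPKM in Control, 9.29 in SNL, 12.5 with control shRNA and 14.4 in the group labelled Neat1 shRNA. Nab1 was at 12.5, 13.2, 10.4 and 11.4 FPKM in the same order, a narrow range. In SNL, Nab2 was 2.20-fold its Control level (log2 ratio 1.14, 9.04% of symbols higher) and Nab1 1.06-fold (0.08, 44.9% of symbols higher). The FPKM of Nab1 was 2.96 times that of Nab2 in Control, 1.42 times in SNL, 0.830 times with control shRNA and 0.788 times in the group labelled Neat1 shRNA. Nab1 was thus the more abundant of the pair in the groups without vector and Nab2 in those with vector, which come from the other table. Egr2 and Nab2 kept a closer ratio, with Egr2 at 2.13, 2.18, 1.85 and 1.70 times the FPKM of Nab2. Nab2 (chr7:71117866-71142963) shares the span of its row with Stat6, which stood at 25.9 and 31.4 FPKM in Control and SNL, and reads of the overlapping genes may not be fully told apart. Nab1 lies alone at chr9:53571212-53610614.

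The start regions of the pair are shown side by side, as an exact match to the EGR motif was found in that of Nab1 and not in that of Nab2. Only exact matches were searched. The Nab2 window holds tgcccacgc, which differs from the reverse complement CGCCCACGC at the first base alone, so a near match is present there. Both are RefSeq windows of GRCr8, with Nab1 at chr9:56545392-56545691 on the plus strand and Nab2 at chr7:65389206-65389505 on the minus strand. Capitals in Nab1 mark GCGTGGGCG, once on each strand (at -202 as its reverse complement and at -170), and GCGGGGGCG at -99, the same motif with G at the fourth place:
Nab1: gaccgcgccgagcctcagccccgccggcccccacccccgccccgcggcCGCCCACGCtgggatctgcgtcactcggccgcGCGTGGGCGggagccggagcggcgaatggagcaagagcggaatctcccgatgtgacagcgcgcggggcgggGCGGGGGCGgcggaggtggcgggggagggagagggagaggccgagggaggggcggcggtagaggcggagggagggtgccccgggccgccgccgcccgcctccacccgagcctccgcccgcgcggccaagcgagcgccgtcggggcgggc
Nab2: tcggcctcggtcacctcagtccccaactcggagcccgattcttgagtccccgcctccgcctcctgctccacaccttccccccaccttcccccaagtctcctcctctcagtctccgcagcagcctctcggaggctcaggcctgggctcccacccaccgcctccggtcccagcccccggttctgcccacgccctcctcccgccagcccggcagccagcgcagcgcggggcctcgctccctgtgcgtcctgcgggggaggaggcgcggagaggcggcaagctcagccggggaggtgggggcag
The first form was found in 0.590% and the second in 2.78% of the 27457 promoters on either strand. These windows are rich in G and C (81.7% in Nab1 and 73.3% in Nab2, against a median of 52.3% over all promoters), which such motifs share. Of the 10 members 5 had a window in the table used, and in those of Sox2 and Erbb2 none of the motifs searched was found.

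Shh, the secreted ligand that injured Schwann cells are known to produce, stood at 21.4 FPKM in Control and 27.3 in SNL, a ratio of 1.27. In the shRNA table it was at 11.8 FPKM with control shRNA and 14.0 in the group labelled Neat1 shRNA, or 1.18-fold. Its row spans 31640 bp in the SNL table, where 3 unnamed rows share the locus (chr4:710458-742098), and 10131 bp in the shRNA table. The levels in SNL and SNL+control shRNA, 27.3 and 11.8 FPKM, therefore cannot be set against each other as levels of 1 transcript.

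The other genes of hedgehog signalling were higher in SNL in 4 of 8 measured and lower in 0, with a median log2 ratio of FPKM + 1 of 0.53. Of all measured symbols, 19.2% were higher and 16.4% lower. Gli1, a transcription factor that is itself a target of the pathway, stood at 5.57 FPKM in Control and 11.3 in SNL. Dhh, the hedgehog ligand of Schwann cells, was more abundant than Shh in both groups of the SNL table, at 35.2 FPKM in Control and 49.5 in SNL, a ratio of 1.41. Cdon, a co-receptor, was at 1.86 and 1.46 FPKM, and Disp1, which releases the ligand, at 5.75 and 5.55. With the shRNA vectors 0 of 11 were higher and 1 lower, where 1.5% of all measured symbols were higher and 3.9% lower. That gene was Hhip, which binds and holds hedgehog ligands, at 1.42 FPKM with control shRNA and 0.679 in the group labelled Neat1 shRNA. Gli1 was at 17.1 and 17.4 FPKM there.

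Erbb2 and Erbb3 encode the receptor subunits through which neuregulin acts on Schwann cells, ERBB3 binding the ligand and ERBB2 giving the kinase activity. Erbb2 was at 4.35 FPKM in Control, 9.79 in SNL, 11.5 with control shRNA and 12.7 in the group labelled Neat1 shRNA. In SNL it was 2.25-fold its Control level (log2 ratio 1.17, 8.67% of symbols higher), and between the shRNA groups the ratio was 1.11. The row (chr10:86163399-86189535) shares its span with Mien1, which stood at 62.6 and 56.8 FPKM in Control and SNL. Erbb3 had a row of its own in the shRNA table, at 51.3 FPKM with control shRNA and 66.0 in the group labelled Neat1 shRNA (1.29-fold, log2 ratio 0.36, 4.15% of symbols higher). It was there 4.47 and 5.20 times as abundant as Erbb2. In the SNL table the row that joins Erbb3 with Pa2g4 stood at 45.5 FPKM in Control and 67.7 in SNL, 1.49-fold. How much of this belongs to Erbb3 cannot be told, since Pa2g4 alone reached 45.2 and 45.6 FPKM in the shRNA table.

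The neuregulins Nrg1 and Nrg2 were lower in SNL, where Erbb2 was higher. Nrg3 had no row, and Nrg4 was far below 1 FPKM, at 0 in Control and 0.0217 in SNL. Nrg1, the axonal neuregulin, was at 28.9 FPKM in Control and 9.96 in SNL (0.345-fold), and Nrg2 at 4.60 and 0.996 (0.217-fold). Bace1, the protease that cleaves neuregulin into its active form, was at 29.8 and 16.4 FPKM. Other members of the EGF family were higher, among them Egfr, at 1.39 and 5.20 FPKM, and the ligand Btc, at 1.07 and 3.26. Of 9 measured genes of the list 4 were higher and 3 lower in SNL (median log2 ratio of FPKM + 1 of 0.22), so no single direction held for the family. Over all measured symbols 19.2% were higher and 16.4% lower. Sensory neurons make Nrg1, and the neuron markers had no common direction either, with 2 of 8 higher, 4 lower and summed levels of 8354 FPKM in Control and 9634 in SNL. They reached from Rbfox3, at 83.3 and 15.3 FPKM, to Tubb3, at 2403 and 3689, and their part in the levels of the neuregulins was not tested. Of the 9, 0 passed 1.5-fold between the shRNA groups, where Bace1 (14.9 and 17.4 FPKM) had the highest ratio and Errfi1, a feedback inhibitor of these receptors, the lowest (17.1 and 14.0).

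Set against the FPKM of Sox10 in the same group, the members spread in both directions. Pou3f1 came to 6.15% of the Sox10 FPKM in Control, 13.8% in SNL, 13.6% with control shRNA and 21.0% in the group labelled Neat1 shRNA. Egr2 came to 16.7%, 23.7%, 24.2% and 21.9%, and Erbb2 to 8.07%, 11.4%, 12.0% and 11.4%. Nab2, at 7.84%, 10.9%, 13.1% and 12.9%, followed the same course. Nab1 was lower relative to Sox10 in SNL, at 23.2% in Control and 15.4% in SNL, then 10.9% and 10.2% in the shRNA groups. Of the 4 members higher than Sox10 in SNL by ratio, Pou3f1 alone also passed 1.5-fold after this division (2.24-fold). Egr2 and Erbb2 were at 1.42-fold each and Nab2 at 1.39-fold. In the other direction Nab1 was just past 1.5-fold lower (0.666-fold). Shh (0.802-fold) and the Sox2 row used (0.775-fold) were lower but within 1.5-fold. Between the shRNA groups Pou3f1 was at 1.54-fold by the same measure.

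**Figure D3:**
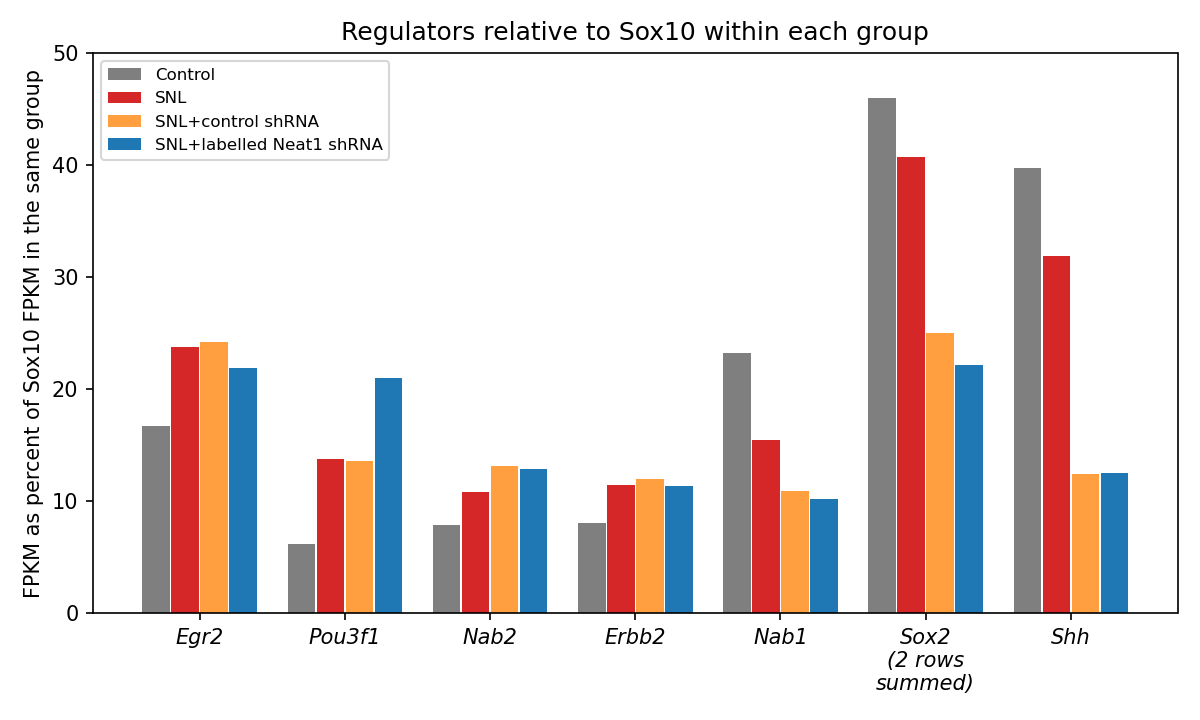
FPKM of 7 regulators as a percent of the Sox10 FPKM of the same group (bars from 0, 1 pooled value per group, no error bar). Pou3f1 stands at 6.15, 13.8, 13.6 and 21.0% in the order Control, SNL, SNL+control shRNA and labelled Neat1 shRNA, whereas Nab1 stands at 23.2, 15.4, 10.9 and 10.2%.

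The myelin genes that these regulators are known to act on were described apart. Of 13 measured genes of myelinating Schwann cells, 1 was higher in SNL and 0 lower, with a median log2 ratio of FPKM + 1 of -0.23. Of all measured symbols, 19.2% were higher and 16.4% lower. The myelin gene past 1.5-fold was Cnp, an enzyme of the myelin membrane, at 113 FPKM in Control and 214 in SNL, followed by the adhesion molecule Mag at 14.1 and 18.0. The lowest ratios were those of Ugt8, which makes galactolipids of myelin, at 46.7 and 33.7 FPKM, and of the myelin protein Pmp22, at 1895 and 1406. Egr2 was thus 2.25-fold higher in a tissue where most myelin genes lay within 1.5-fold of Control. Which cells the Egr2 RNA came from was not tested, so its level and those of the myelin genes may stand for different cells. In the group labelled Neat1 shRNA, 5 of 14 were higher and 0 lower (median 0.49, against -0.0036 over all 11113 symbols). Of those symbols, 1.5% were higher and 3.9% lower. Ncmap stood at 68.9 FPKM with control shRNA and 129.8 in the group labelled Neat1 shRNA, and Mag at 15.6 and 28.2. The others past 1.5-fold were Mal (1.65-fold), Cldn19 (1.63-fold) and Pllp (1.55-fold). Mbp, at 657 and 978 FPKM (1.49-fold), did not pass. The ratio of Egr2 between the same groups was 1.06.

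Genes of the repair state were higher in SNL in 9 of 18 measured and lower in 1 (median log2 ratio of FPKM + 1 of 0.56). Of all measured symbols, 19.2% were higher and 16.4% lower. The astrocyte and glial filament gene Gfap was at 6.95 FPKM in Control and 56.0 in SNL, and the cytokine Lif at 0.302 and 1.73. Jun, the factor that opposes Egr2 in Schwann cells, was at 45.5 and 193 FPKM, so both factors were higher in SNL. Ngfr, the neurotrophin receptor p75 of immature Schwann cells, which sensory neurons and satellite glia also make, was at 304.5 and 136 FPKM, and Runx2 at 7.78 and 6.43. Several of the list (Jun, Gap43 and Lif among them) are also known from injured neurons or immune cells. In the group labelled Neat1 shRNA 0 of 18 were higher and 2 lower, Lif (3.39 and 1.77 FPKM) and Artn (3.33 and 2.12), while Jun was at 194 FPKM in both shRNA groups. There 1.5% of all measured symbols were higher and 3.9% lower.

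Other regulators of Schwann cell myelination were higher in SNL in 6 of 11 measured, with 0 lower (median 0.59). Over all measured symbols the shares were 19.2% higher and 16.4% lower. Nfatc4, which works with Sox10 on Egr2, stood at 1.82 FPKM in Control and 4.25 in SNL, and Tead1, the partner of YAP and TAZ, was at 8.03 FPKM in Control and at 2.12 times this level in SNL. The chromatin remodeller Smarca4 had the lowest ratio, at 31.3 and 28.7 FPKM. Between the shRNA groups 0 of 11 passed 1.5-fold, with Tead1 (18.1 and 21.2 FPKM) and Zeb2 (46.3 and 53.5), a repressor needed for remyelination, at the highest ratios.

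**Figure D4:**
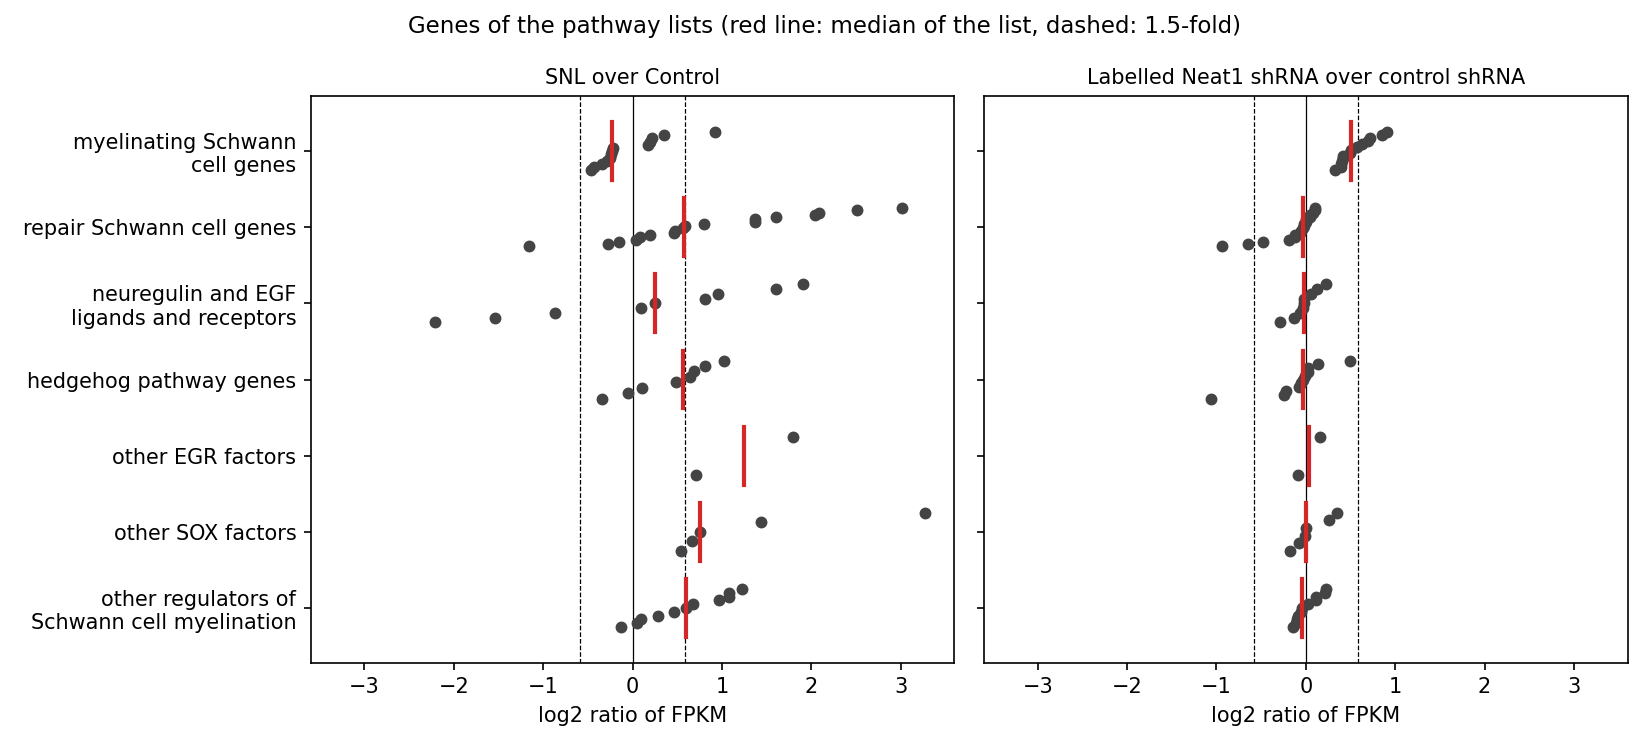
Log2 ratio of FPKM for each measured gene of 7 lists (points), with the median of the plotted ratios (red line) and 1.5-fold (dashed), in SNL over Control (left) and in the group labelled Neat1 shRNA over control shRNA (right). Of the myelinating Schwann cell genes 1 of 13 lies past 1.5-fold on the left and 5 of 14 on the right, while repair genes reach from Ngfr at -1.16 to Gfap at 3.01 on the left.

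The genes whose ratios in both comparisons lay nearest to each member were found among the 10020 symbols, by the distance between the 2 log2 ratios. For Egr2 they were C2cd2 (distance 0.0080) and Mreg (0.010), for Sox10 Reck (0.015) and Slc2a5 (0.030), and for Nab2 Foxs1 (0.022) and Fgfr2 (0.033). Erbb2 lay nearest to Wbscr27 (0.024) and Olfml3 (0.033). Within a distance of 0.1 there were 44 symbols for Egr2, 51 for Sox10, 18 for Nab2, 29 for Erbb2 and 86 for Shh, but 389 for Nab1 and 450 for Sox2. Shh lay nearest to Eng and Zbtb39, Nab1 to Dpp7 and Psd, and Sox2 to Irf2bpl and Pcgf6. With 2 ratios per gene such a likeness is weak for members near the middle of the table, where many symbols lie.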

How the data were processed

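Stranded libraries of polyadenylated RNA were sequenced with paired reads of 75 bp, which the authors aligned to rn5 and passed to Cufflinks with RefSeq annotation (the submitters' processing notes also name both). The authors deposited 2 tables (28578 and 28745 rows) with 1 FPKM value per group and row, pooled over 3 libraries, with their own log2 fold changes, p-values, q-values and calls of significance, which were not used. The tables were assembled and normalized separately, so ratios were taken within a table. Over 10494 symbols SNL+control shRNA was 1.09-fold SNL at the median, a shift that levels set across tables carry. FPKM values give no read number, so depth is unknown and no interval was computed.

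Symbols with FPKM of at least 1 in 1 group counted as measured, and a ratio past 1.5-fold as higher or lower. Of all measured symbols, 35.7% passed 1.5-fold either way in SNL and 5.4% between the shRNA groups. List medians used log2(FPKM + 1), which understates the ratios of low genes. Members and lists were chosen with earlier results of these data known. Genes named were the members, up to 2 with the highest and 2 with the lowest ratio per list, the 2 symbols nearest to each member, and Neat1. A few others, such as Jun, Mbp and Pou3f2, were named after their values were seen. Some genes that the rule names are not reported here. Alternatives were pseudocounts of 0.1 and 1, a filter on low values, folds of 1.25 and 2, summed rows, scalings to all symbols or reference genes and, chosen after seeing the data, the other Sox2 row and the joined Erbb3 row. The counting of ratios was tested on simulated data. Promoters came from RefSeq (GRCr8). Python 3.11.15, numpy 2.4.6, pandas 2.3.3 and matplotlib 3.10.9 were used.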

Additional observations from a re-analysis of the deposited data

How the results depend on the processing

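No paired analysis was possible because the tables hold 1 pooled value per group, and for the same reason no replicate could be left out. The count of members higher in the group labelled Neat1 shRNA (1 as reported) was 2 with the lower of the other 2 fold thresholds, which adds Erbb3, and 0 with a fold of 2. In SNL it was 5 as reported, 4 with a fold of 2, which drops Sox10, and 6 with the lower threshold or with the other Sox2 row. Over all lists, 62 of 130 genes were higher in SNL, and 37 with a fold of 2. In the other direction 15 were lower, and 10 with a fold of 2. Between the shRNA groups 5 of 139 were higher, 11 of 157 with no filter on low values and 0 with a fold of 2. There 13 of 139 were lower, 15 of 157 with no filter and 10 with a fold of 2. At 1.5-fold, 19.2% of all measured symbols were higher and 16.4% lower in SNL. Between the shRNA groups 1.5% were higher and 3.9% lower. The shares of all symbols with the other folds or with no filter were not computed, so those counts of members and lists have no background beside them. Of 161 values of members under the alternatives, 156 kept their side of the threshold. Of these 156, 2 changed sign, both of Sox2 between the shRNA groups (-0.09 as reported, up to 0.36 with the other row). Neither scaling moved a median by more than 0.05 on the log2 scale: 12 reference genes had medians of 0.05 in SNL and 0.0044 between the shRNA groups. The lack of a value per library limits every result, and the depth behind low values such as those of Olig1 is unknown.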

Other observations

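Genes of the cell cycle were higher in SNL in 7 of 8 measured (summed level 32.4 FPKM in Control and 69.1 in SNL), with Mcm5, a replication factor, at 1.59 and 8.84 FPKM and Top2a, a topoisomerase of dividing cells, at 0.883 and 4.74. Pcna, also used in DNA repair, was at 22.2 and 30.7 FPKM. Of all measured symbols, 19.2% were higher and 16.4% lower in SNL. Between the shRNA groups 0 of 8 passed 1.5-fold (summed 79.8 and 68.9 FPKM). Of 6 endothelial markers 1 was higher in SNL, Cdh5 at 1.53-fold and 15.3 FPKM in SNL, and 0 between the shRNA groups. Which cells the cycling genes came from was not tested.

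The other 9 symbols that, like Pou3f1, were past 1.5-fold higher in both comparisons were Btbd16, C1ql3, Ccl21, Cuedc2, Epb41l4b, Fmod, Hamp, LOC102549726 and Tpm2, named after their values were seen. Ccl21, a chemokine that draws lymphocytes, stood at 1.56 FPKM in Control, 5.52 in SNL, 8.06 with control shRNA and 25.8 in the group labelled Neat1 shRNA. Hamp, which encodes the iron hormone hepcidin, stood at 1.52, 24.2, 13.5 and 20.6 FPKM in the same order. Among the 10020 symbols, 1615 were past 1.5-fold higher in SNL and 92 in the group labelled Neat1 shRNA.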
